A study of Mus musculus with 6 samples.

Results

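The 2 miRNA genes of the imprinted *H19*/*Igf2* locus were followed in a mouse model of Wnt-driven liver cancer. Every probe of the panel named for miR-675 or miR-483 was taken, whichever arm it detects. This gave 3 of the 566 mouse miRNA probes, mmu-miR-675-3p, mmu-miR-675-5p and mmu-miR-483. Liver RNA came from 3 *Apcfl/fl* and 3 *Apc+/+* mice, all of C57Bl/6 background. The *Apcfl/fl* mice carried 2 copies of a hypomorphic floxed *Apc* allele and their livers are labelled as hepatocarcinoma (HCC), which in this model is known to have active Wnt/β-catenin signalling. The *Apc+/+* mice are labelled as healthy controls. No other allele or agent is named for either genotype, and RNA was from whole frozen liver. The sources used here give neither the age of the mice nor the share of tumour in each sample. miRNAs were counted by NanoString, an assay in which colour-coded probes are counted one by one without amplification. The deposited counts summed to 82942 to 133331 per liver over the mouse probes.

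*H19* and *Igf2* are neighbouring genes under the control of a shared imprinted region. *H19*, a long non-coding RNA, is transcribed from the maternal copy, and *Igf2*, which encodes a fetal growth factor, from the paternal copy. Both are highly expressed in fetal liver, are shut down after birth and are known to return in some liver tumours. The hairpin of miR-675 is cut out of the *H19* transcript, and that of miR-483 lies within *Igf2*. miR-675 is known to limit growth and to act on the Igf1 receptor, and miR-483 is known from fetal tissue and from tumours with high *Igf2*.

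The sequences were read from RefSeq (GRCm38.p6) and are shown to set the arms apart, because each arm of miR-675 has a probe of its own. Mir675 lies at chr7:142577064-142577147 on the minus strand, inside *H19*. Mir483 lies at chr7:142654924-142654996 on the same strand, inside *Igf2*, and 0 protein-coding genes of the RefSeq table lie between the hosts. The counts themselves carry no genome build. Of the 3 probe names, 2 had an entry with the same name. The probe mmu-miR-483 carries no arm in its name, so both arms of its hairpin are shown and its counts are not assigned to either. In the mature sequences the capitals mark the seed (bases 2 to 8), the part that pairs with targets.
mmu-miR-675-5p: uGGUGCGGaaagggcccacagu
mmu-miR-675-3p: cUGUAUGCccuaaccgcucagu
mmu-miR-483-5p: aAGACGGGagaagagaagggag
mmu-miR-483-3p: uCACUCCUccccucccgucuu

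In the hairpins the capitals mark the 2 mature arms, 5p first.
Mir675: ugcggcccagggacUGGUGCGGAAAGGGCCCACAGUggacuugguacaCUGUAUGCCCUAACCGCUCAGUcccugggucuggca
Mir483: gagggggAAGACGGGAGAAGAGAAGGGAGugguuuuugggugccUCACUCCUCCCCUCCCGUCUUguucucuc

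None of the 4 seeds was shared with any other mature mouse miRNA among the 1679 names in the table (0 for each), so the members form no seed family with each other or with another miRNA. The longest run of bases that miR-675-3p shared with any other mature miRNA was 8 of its 22. The arms of miR-675 had a mixed composition (54.5% G and C in 3p, 63.6% in 5p). The arms of miR-483 were skewed, with 95.5% purines in 5p and 90.5% pyrimidines in 3p. In the fold predicted by RNAfold, 16 of the 22 bases of miR-675-3p paired with the 5p arm, and the free energy was -56 kcal/mol for Mir675 and -33.8 kcal/mol for Mir483.

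miR-675-3p had higher counts in *Apcfl/fl* liver, without passing the adjusted test across the panel. Its deposited counts were 4.67, 3.67 and 6.67 in *Apc+/+* mice against 66.67, 25.67 and 38.67 in *Apcfl/fl* mice. Every *Apcfl/fl* liver lay above every *Apc+/+* liver, and *Apcfl/fl* liver 1 was the highest. Background was read from 33 probes for miRNAs of murine cytomegalovirus and murine gammaherpesvirus on the same panel, taking in every liver their mean and adding 2 SD. This limit was 14.3 to 23.3 counts in *Apc+/+* and 13.1 to 27.8 counts in *Apcfl/fl* liver. miR-675-3p was above this limit in 3 of 3 *Apcfl/fl* livers, at 2.40, 1.96 and 2.02 times the limit, and in 0 of 3 *Apc+/+* livers. No viral probe was higher than miR-675-3p in any *Apcfl/fl* liver (0 of 33 in each). In the *Apc+/+* livers 20, 29 and 11 of the 33 viral probes were higher. Of all 566 mouse probes, 4 (0.707%) were above the limit in every *Apcfl/fl* liver and in no *Apc+/+* liver. They were miR-675-3p, miR-127, miR-376b and miR-331-3p, the last 3 named after their values were seen.

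**Figure D1:**
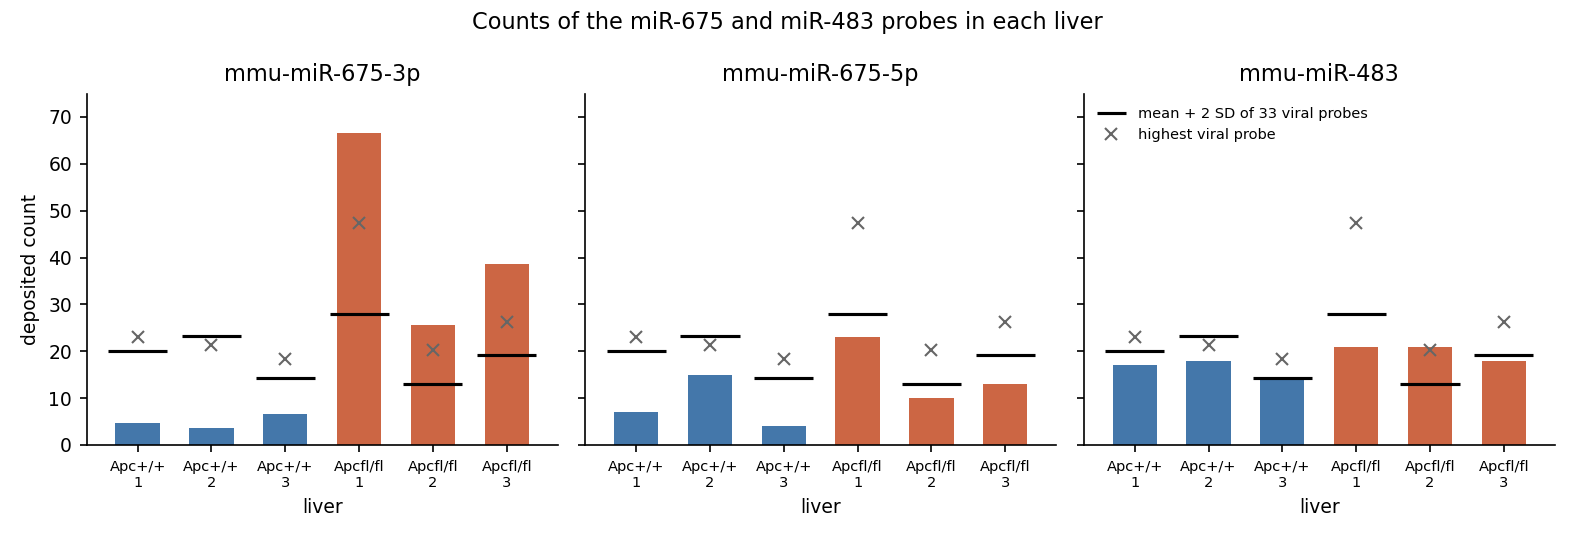
Deposited counts (y axis) of the 3 probes in the 3 *Apc+/+* (blue) and 3 *Apcfl/fl* (orange) livers, with the mean plus 2 SD of the 33 viral probes (black line) and the highest viral probe (cross) of each liver. miR-675-3p exceeds both marks in the 3 *Apcfl/fl* livers alone, miR-675-5p is under the line in all 6 livers, and miR-483 passes it in *Apcfl/fl* liver 2 alone.

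After TMM normalization, a scaling that holds most miRNAs level between livers, miR-675-3p had 6.31, 4.91 and 8.60 counts in *Apc+/+* mice against 60.3, 27.5 and 25.6 in *Apcfl/fl* mice, or 6.61 ± 1.86 against 37.8 ± 19.5 (SD, n = 3 each). On the log2 scale the fitted difference was 2.21, with a standard error of 0.50 and a 95% confidence interval of 1.02 to 3.40. The quasi-likelihood test of edgeR gave an adjusted p of 0.056, which did not pass 0.05. Over 14 alternatives in the processing the adjusted p ranged from 0.0067 to 0.23, and it was under 0.05 in 5 of them, with a log2 fold change of 1.72 to 3.82. The largest fold change came with the mean viral count subtracted, where negative values were set to 0. The viral mean was 8.20 and 11.3 in *Apc+/+* livers 1 and 2, above their miR-675-3p counts. The size of that fold change thus depends on the floor. Of the 174 miRNAs tested, 0 (0%) had an adjusted p under 0.05 in edgeR's test, 24 (13.8%) were higher at an unadjusted p under 0.05 and 19 (10.9%) were lower. DESeq2 called 20 higher and 9 lower after adjustment, and limma 0. The p-value of miR-675-3p was the 8th smallest, and its adjusted value was shared by 11 miRNAs. Its log2 fold change was the 16th highest of the 174. In a two-sided exact permutation test of its normalized log2 counts p was 0.1, the smallest that 3 mice against 3 allow. For 27 of the 174 tested miRNAs (15.5%) all *Apcfl/fl* livers lay above all *Apc+/+* livers, miR-675-3p among them.

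The fitted fold change rests on *Apc+/+* counts under the background limit, and the miRNA met the count minimum for the test (a mean of 20 over the 6 livers) through its counts in *Apcfl/fl* liver. With no count minimum, where all 566 mouse probes were fitted, miR-675-3p had a log2 fold change of 2.51 and an adjusted p of 0.089 in edgeR's test. The mean normalized count of miR-675-3p in *Apcfl/fl* mice (37.8) was 1.59 times the mean normalized limit of the *Apc+/+* livers (23.8). This is a ratio of 2 means without an interval, not a minimum that holds for each liver. The ratio was 1.12 without *Apcfl/fl* liver 1, which had the highest normalized count, and 1.80 or 1.85 without liver 2 or liver 3. Against the mean of the *Apc+/+* livers, the single *Apcfl/fl* livers differed by 2.88, 1.80 and 1.70 on the log2 scale. All 3 thus lay on the same side, with the largest difference in liver 1.

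The place of a probe within its own liver does not depend on the scaling between livers. miR-675-3p stood at percentile 29.5, 19 and 43.1 of the 566 mouse probes in *Apc+/+* mice. In *Apcfl/fl* mice it stood at percentile 82.5, 72.4 and 76.2 (two-sided exact permutation test, p = 0.1). By rank this was a move from 391st, 453rd and 316th to 99th, 156th and 135th. The *Apc+/+* places are those of counts under the viral limit, so the size of the move cannot be read from them. The groups did not overlap, but how many of the 566 probes also separated by percentile was not counted. The viral probes were compared in normalized counts, which do depend on the scaling. Their median log2 difference between *Apcfl/fl* and *Apc+/+* liver was -0.45, with a highest value of 0.39. Of the 33, 0 had all *Apcfl/fl* livers above all *Apc+/+* livers (6 had all below). Their mean deposited counts overlapped, at 8.20, 11.3 and 5.66 in *Apc+/+* against 10.1, 4.91 and 7.64 in *Apcfl/fl* liver. A part of background in the difference of miR-675-3p was not tested.

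**Figure D2:**
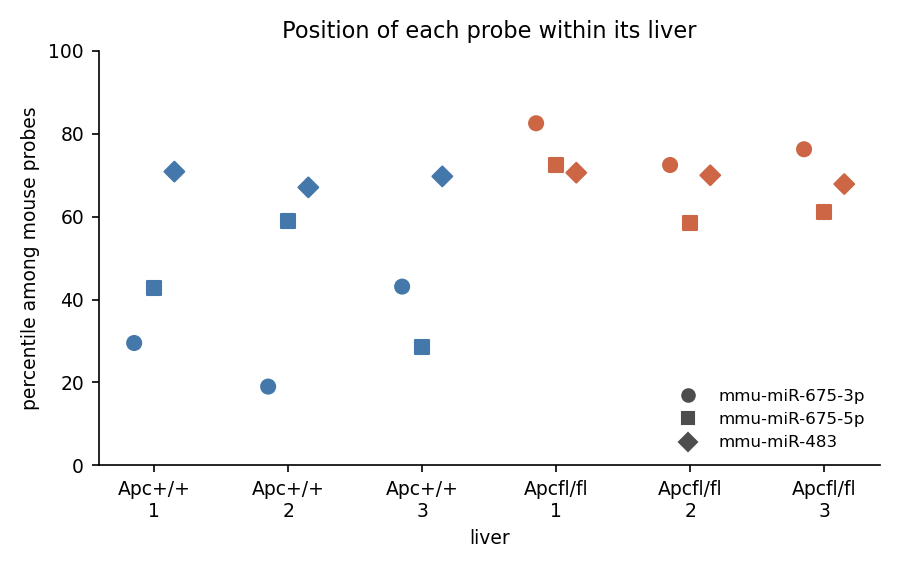
Percentile of each member among the 566 mouse probes of its own liver (y axis) in the *Apc+/+* (blue) and *Apcfl/fl* (orange) livers, with a marker shape for each probe. miR-675-3p goes from at most 43.1 in *Apc+/+* to at least 72.4 in *Apcfl/fl* liver, miR-675-5p overlaps between the genotypes, and miR-483 stays between 67.0 and 70.8 in all 6.

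miR-675-5p, the other arm of the same hairpin, was not above background in any liver. Its deposited counts were 7, 15 and 4 in *Apc+/+* mice against 23, 10 and 13 in *Apcfl/fl* mice, and the range of one genotype overlapped that of the other. It was under the viral limit in 6 of 6 livers, although *Apcfl/fl* liver 1 reached 0.83 of the limit, with 1 of the 33 viral probes above it. In the other *Apcfl/fl* livers 3 and 7 viral probes were higher. Its mean count of 12 was under the count minimum, so it was not in the test of 174. Normalized counts were 10.7 ± 6.95 in *Apc+/+* and 13.3 ± 6.51 in *Apcfl/fl* liver (SD, n = 3 each), a difference of 0.33 on the log2 scale. This difference had p = 0.6 in a two-sided exact permutation test. Its sign turned without *Apc+/+* liver 3 (-0.098). When all mouse probes were fitted in edgeR, the log2 fold change was 0.62 with a 95% confidence interval of -0.54 to 1.77, so no change of either sign was detected. Both arms had their highest count of the 6 livers in *Apcfl/fl* liver 1.

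The counts could not show whether the balance between the arms of miR-675 changed, since 5p was under the viral limit in all 6 livers and 3p in the 3 *Apc+/+* livers. The ratios of their counts are given as a description and largely restate the higher 3p counts. The count of 3p was 0.67, 0.24 and 1.67 times that of 5p in the *Apc+/+* livers, where both arms were under the limit. It was 2.90, 2.57 and 2.97 times that of 5p in the *Apcfl/fl* livers, where 3p was above the limit and 5p was not. The 3 *Apcfl/fl* livers were close to each other and all above the *Apc+/+* livers. With 2 counts added to each arm, the log2 ratio was -0.50 ± 1.06 in *Apc+/+* and 1.37 ± 0.14 in *Apcfl/fl* liver (SD, n = 3 each), a difference of 1.86. The ratio is of probe counts, and each probe may capture its arm to a different degree, so its level does not give the ratio of the molecules.

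On this panel 65 hairpins had a probe for each arm. Their log2 arm ratio changed by a median of 0.15 and by -2.16 to 2.12, and for 12 of the 65 the genotypes did not overlap. Only 6 of these hairpins had a mean count of at least 20 on both arms, with changes of -1.14 to 1.19. miR-675 was not among the 6.

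**Figure D3:**
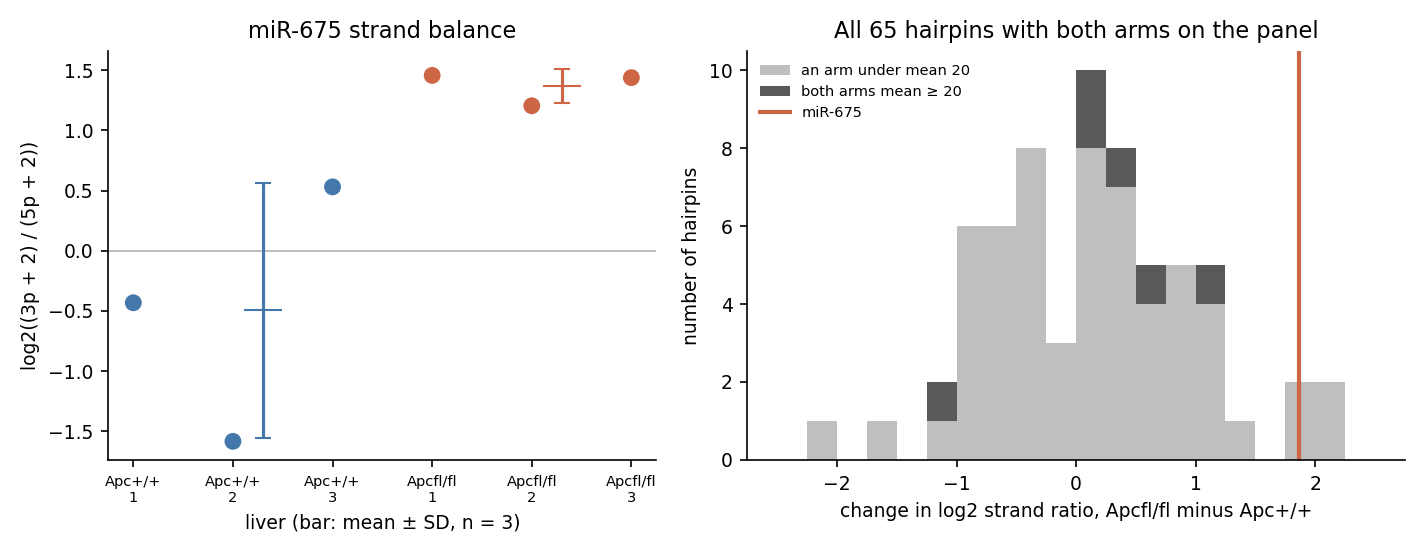
Left, log2 ratio of miR-675-3p over miR-675-5p counts, with 2 counts added to each, in every liver (*Apc+/+* blue, *Apcfl/fl* orange, bars for mean ± SD, n = 3). Right, the change of this ratio from *Apc+/+* to *Apcfl/fl* liver for all 65 hairpins with both arms on the panel (dark grey for the 6 with both arms at a mean of 20 or more), with miR-675, whose 5p arm is under the viral limit in all 6 livers, as a line at 1.86.

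miR-483, the miRNA of *Igf2*, was close to the background limit in both genotypes. Its deposited counts were 17, 18 and 14 in *Apc+/+* mice against 21, 21 and 18 in *Apcfl/fl* mice, within 7 counts of each other, and the genotypes met at 18. It was above the viral limit in *Apcfl/fl* liver 2 (1.60 times the limit) and in 0 of 3 *Apc+/+* livers. In the other 5 livers it stood at 0.75 to 0.98 of the limit. In liver 2 the limit itself was the lowest of the 6, at 13.1 counts, while the count of miR-483 was the same as in *Apcfl/fl* liver 1. Its mean count of 18.2 was under the count minimum. Normalized counts were 20.2 ± 2.66 in *Apc+/+* and 17.7 ± 5.32 in *Apcfl/fl* liver (SD, n = 3 each). The log2 difference was -0.21 (p = 0.7, two-sided exact permutation test). The sign depended on the scaling, with 0.16 when the total count was used. Fitted with all mouse probes, the log2 fold change was 0.18 (95% confidence interval -0.79 to 1.15 in edgeR). Within its own liver miR-483 held percentile 70.8, 67.0 and 69.7 in *Apc+/+* mice. The values in *Apcfl/fl* mice, 70.6, 70.0 and 67.8, lay among them (p = 0.9, two-sided exact permutation test).

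Set side by side, 4 of the 18 member values were above the viral limit, 3 of them from miR-675-3p and 1 from miR-483, all in *Apcfl/fl* liver. Of all mouse probes 24.7% to 35.7% were above the limit in a liver. The same 4 values passed when the limit was the highest viral probe, the mean plus 3 SD, or the median plus 3 scaled median absolute deviations. With a fixed limit of 20 counts the number was 6, with miR-675-5p and miR-483 of *Apcfl/fl* liver 1 added.

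The tested miRNAs whose profile over the 6 livers was closest to that of miR-675-3p were miR-21, miR-25, miR-125a-5p, miR-2132 and miR-350. Likeness was the root mean square difference between log2 normalized counts centred over the 6 livers, which was 0.52 for miR-21, 0.62 for miR-25 and 0.72 to 0.73 for the other 3, against a median of 1.29 over the 173 other tested miRNAs. miR-21, an abundant miRNA of many tumours, had 2127.33 to 3477.33 counts in *Apc+/+* and 7482.33 to 11929.3 counts in *Apcfl/fl* liver. miR-25, of the miR-106b cluster, had 170.33, 154.33 and 184.33 against 564.33, 382.33 and 543.33. All 5 were above the viral limit in every liver of both genotypes (3 of 3 each), which miR-675-3p was not. Their log2 fold changes were 1.0 to 1.57, and for none of the 5 was the adjusted p in edgeR's test under 0.05. The 5 were chosen by likeness in these same livers, so their positive fold changes follow largely from the choice.

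**Figure D4:**
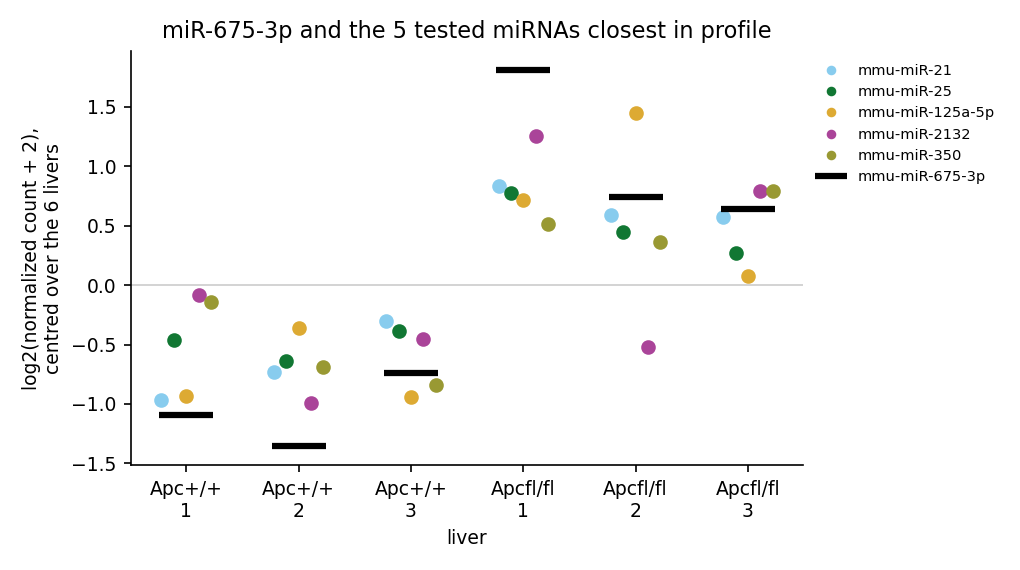
Log2 normalized count, centred over the 6 livers (y axis), of miR-675-3p (black bars) and of the 5 tested miRNAs closest to it (coloured points) in each liver. All 6 are below 0 in the *Apc+/+* livers and above 0 in the *Apcfl/fl* livers, except miR-2132 in *Apcfl/fl* liver 2.

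miRNAs known, like miR-675, to act on the Igf1 receptor had mostly negative fold changes. Of 7 such probes 5 were tested, 4 with a negative and 1 with a positive log2 fold change, and 0 of the 5 had an adjusted p under 0.05 in edgeR's test. At an unadjusted p under 0.05, 3 of the 5 were lower and 1 higher, beside 10.9% lower and 13.8% higher over all 174 tested, of which 86 had a negative fold change. The median log2 fold change was -1.31, beside 0.01 over all 174 tested. miR-122, the main hepatocyte miRNA, had -1.71 (standard error 0.34) and miR-145, a miRNA of smooth muscle and stroma, -1.71 (standard error 0.33). miR-100 had -1.31 (standard error 0.45), from counts of 55.33, 52.33 and 48.33 in *Apc+/+* mice against 15.33, 21.33 and 58.33 in *Apcfl/fl* mice, so that *Apcfl/fl* liver 3 was not low in deposited counts. miR-99a, of the same family, had -0.43 (standard error 0.24). Its deposited counts overlapped, at 168.33, 162.33 and 161.33 against 206.33, 124.33 and 204.33, so its sign depended on the scaling. The positive value was that of miR-223, a miRNA of myeloid cells, at 1.40 (standard error 0.38). miR-122, miR-145 and miR-223 are also among the cell type markers below, so this list is not separate from those. miR-7a and miR-7b were under the count minimum. miR-7a was above the viral limit in 1 liver of each genotype, and miR-7b in 1 *Apc+/+* and 0 *Apcfl/fl* livers.

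**Figure D5:**
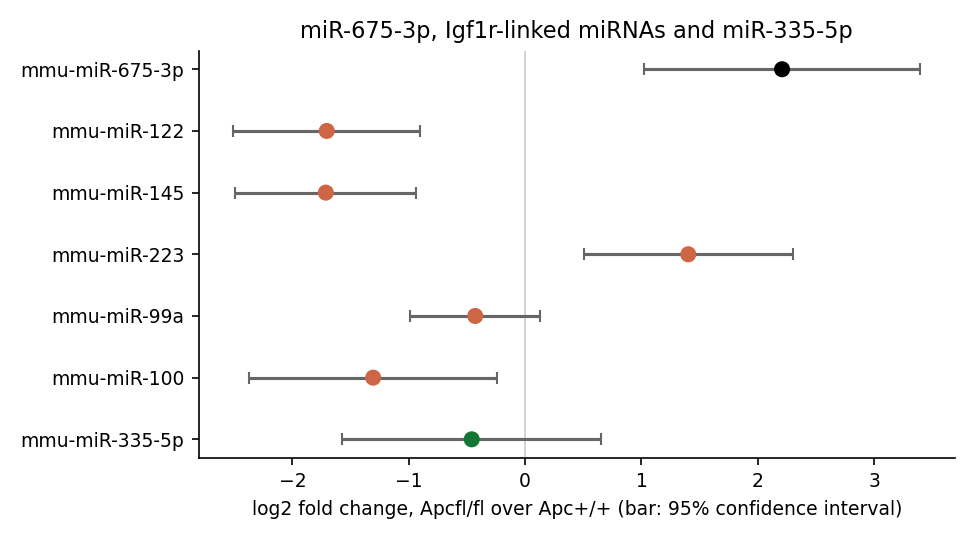
Log2 fold change from *Apc+/+* to *Apcfl/fl* liver with its 95% confidence interval (x axis) for miR-675-3p (black), the 5 tested Igf1 receptor miRNAs (orange) and miR-335-5p (green). miR-675-3p at 2.21 and miR-223 at 1.40 lie to the right of 0, and miR-122, miR-145 and miR-100 to the left with intervals that leave out 0, although 0 of the 7 passed the adjusted test.

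Other imprinted genes outside the large Dlk1-Dio3 and Sfmbt2 clusters gave 5 probes, miR-335-3p and miR-335-5p of *Mest*, and miR-296-3p, miR-296-5p and miR-298 of the *Gnas* locus. Only miR-335-5p met the count minimum. Its counts were 16.67, 30.67 and 18.67 in *Apc+/+* mice against 14.67, 27.67 and 23.67 in *Apcfl/fl* mice, and the fitted log2 difference was -0.46 with a standard error of 0.47 and an adjusted p of 0.58 in edgeR's test. The genotypes overlapped. miR-296-5p and miR-298 were under the viral limit in all 6 livers. None of these 5 probes was above the limit in every *Apcfl/fl* liver. They do not stand for imprinted miRNAs as a whole. In the Dlk1-Dio3 cluster, left out here, miR-376b and miR-127 had log2 fold changes of 6.25 and 4.98, and miR-154 had -1.18. Their adjusted p in edgeR's test was 0.056, 0.068 and 0.056. These were picked for their size after the values were seen, and do not describe the cluster as a whole. The *Apcfl/fl* counts of miR-376b (211, 1026 and 43) and miR-127 (59.33, 406.33 and 22.33) were highest in liver 2.

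Lists of cell type markers were read beside these values. As for all 174 miRNAs tested (0), 0 of their tested members passed the adjusted test. In bulk liver a change in the number of cells of a type and a change in RNA per cell cannot be told apart. The 4 hepatocyte probes were above the viral limit in every liver. Their normalized counts summed to 27829 to 43637 in *Apc+/+* and 9342 to 15633 in *Apcfl/fl* liver. Most of this sum was miR-122 (mean count 17551), and the deposited sums did not overlap (22051 to 35527 against 10386 to 21010). The log2 fold changes of all 4 were negative, with 0 of 4 past the adjusted test. The deposited counts of miR-192 (1241, 996 and 1088 against 1134, 1058 and 1526) and of miR-194 overlapped between the genotypes. The lower values of miR-192 and miR-194 thus depended on the scaling. At an unadjusted p under 0.05 in edgeR's test 3 of the 4 were lower, beside 10.9% of the 174 tested. Normalized counts of the 5 mesenchymal probes summed to 894 to 1318 against 322 to 725. Their deposited counts overlapped, with sums of 708 to 1073 against 358 to 1104, so the separation depended on the scaling. Of the 4 tested, 2 were lower at an unadjusted p under 0.05 in edgeR's test. Their log2 fold changes ran from -1.71 (miR-145) to -0.18 (miR-199a-3p). Normalized counts of the 7 blood cell probes summed to 1180 to 1642 against 1038 to 4867. These sums overlapped, with the highest in *Apcfl/fl* liver 2, and their most abundant probe was miR-451 (mean count 1270). Of the 6 tested, 1 was higher at an unadjusted p under 0.05 in edgeR's test. This was miR-223, with deposited counts of 52, 60 and 62 against 135, 147 and 459. Both endothelial probes were tested and 0 passed. The 5 probes of striated muscle, another tissue with high *H19* and *Igf2*, had normalized sums of 37.3 to 85.1 in *Apc+/+* and 18.4 to 26.4 in *Apcfl/fl* liver. All 5 (miR-1, miR-133a, miR-133b, miR-206 and miR-499) were under the viral limit in every liver except miR-1 in *Apc+/+* liver 3, with 15.67 counts. The 3 neural probes were under the limit in every liver. The part of hepatocyte, stromal and blood cell content in the difference of miR-675-3p was not tested.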

How the data were processed

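NanoString miRNA profiles of liver from 3 *Apcfl/fl* and 3 *Apc+/+* mice were analysed, grouped by genotype from the labels. The authors deposited estimated counts per probe, not scaled between samples (0 columns belonged to no sample). In 584 of 584 probes with 2 or more values above 1, those values shared their decimal part, and no value was under 1 (12.4% were at 1). The step behind this is not given in the sources used here, so its effect on low counts such as those of the members is unknown, and no counting interval is given.

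Counts were rounded and scaled with TMM. The 174 mouse miRNAs that averaged 20 counts or more entered edgeR 4.0.16 (quasi-likelihood test, prior count 2, Benjamini-Hochberg adjustment) in R 4.3.3, without a replicate block. Probes under that minimum were compared with two-sided exact permutation tests (scipy 1.17.1) of log2(normalized count + 2). Normalized counts refer to the mean effective library size. The edgeR procedure was tested on simulated data. No 2 livers of a genotype were near-duplicates, since chi-square over degrees of freedom was 17.2 to 89.1 between them. Hairpins were folded with RNAfold 2.7.2. The alternatives were DESeq2 1.42.0, limma 3.58.1, 3 other scalings, 2 other count minimums, viral background subtraction, a replicate block and each liver left out, with the 174 miRNAs kept. The other miRNAs named are all measured members of the lists and the 5 closest in profile, with 2 kinds of exception. miR-127, miR-376b, miR-331-3p and miR-154 were named for their values, and miR-720 for its use in a scaling. The members and lists were chosen with earlier results of these data known.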

Additional observations from a re-analysis of the deposited data

How the results depend on the processing

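The log2 fold change of miR-675-3p (2.21, adjusted p = 0.056) was positive in 14 of 14 alternatives. It came under an adjusted p of 0.05 with DESeq2 (2.52) and a size factor taken over the top 100 miRNAs (2.30). The same held for scaling by total count (2.61) and by that total less miR-720 (2.58). It also held with the mean viral count subtracted (3.82), a value that depends on the floor at 0. The median log2 fold change of the tested miRNAs moved from 0.01 to 0.45 with the total count, and relative to that median miR-675-3p was 2.19 with TMM and 2.16 with the total count. With 1 liver left out it was 1.72 to 2.39, lowest without *Apcfl/fl* replicate 1, and the adjusted p was 0.051 to 0.23. With a count minimum of 60 it was not tested. For probes under the count minimum, limma was run with scaling and fit over all mouse probes, so its values also carry that change of scaling. The difference of miR-675-5p (0.33) was 1.41 with viral subtraction, 0.65 with the total count and 0.67 with limma. It was -0.098 to 0.72 with 1 liver left out, negative without *Apc+/+* replicate 3 or *Apcfl/fl* replicate 1. That of miR-483 (-0.21) turned positive with the total count (0.16), the total less miR-720 (0.13), viral subtraction (0.034), all mouse probes in edgeR (0.18) and limma (0.16), and was -0.38 to 0.023 with 1 liver left out, positive without *Apcfl/fl* replicate 3. The number of miRNAs called (0) was 29 with DESeq2, 11 with the top 100 size factor, 17 with the total count, 21 with the total less miR-720, 18 with the minimum of 60 and 11 with viral subtraction. With 1 liver left out it was 0 to 7, highest without *Apcfl/fl* replicate 3. The median of the Igf1 receptor list was -0.79 with no filter, where all 7 probes enter, and -1.73 to -1.03 with 1 liver left out. That of the imprinted list was 0.062 with no filter. Causes were not tested.

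Pairing by replicate number was not borne out, since deviations of same-numbered livers correlated at -0.06, -0.06 and 0.12. Under the replicate block miR-675-3p had 2.12 (adjusted p = 0.086), and 7 miRNAs were called.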
